A study of Homo sapiens with 60 samples.

Results

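The genes described here are the transcription factors and feedback regulators of the integrated stress response: ATF4, ATF3, DDIT3, ATF5, CEBPB, CEBPG, TRIB3, PPP1R15A, and NUPR1. They were taken by gene symbol from the count table, so that they are 9 of 62703 genes, and all 9 were among the 12341 genes with enough counts to be tested. RNA came from 1321N1, an astrocyte-derived (astrocytoma) cell line grown in full medium and treated with 2.55 µM sodium metaarsenite (arsenic), 2.3 µM cadmium chloride (cadmium), or 20 µM mercury chloride (mercury), or left non-treated. Cells were lysed at 5 times, the earliest being 1.5 h and the others 3, 6, 12, and 24 h, with 3 libraries for each of the 20 combinations of treatment and time and 60 libraries in all. The concentrations were set by the study to the same degree of cell death in a longer viability assay, so that the metals were compared at a matched toxicity and not at a matched concentration. The study's design text calls the triplicates technical, and the p values therefore measure only the spread between these libraries. The comparisons asked how a metal changed each gene against its time-matched non-treated cells, and whether the metals differed from each other.

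In the integrated stress response, kinases that sense different kinds of stress (PERK, GCN2, PKR, and HRI) phosphorylate the translation factor eIF2, which lowers general protein synthesis and favours the translation of a few mRNAs with upstream open reading frames, among them those of ATF4, ATF5, DDIT3, and PPP1R15A. ATF4 is the main transcription factor of the pathway and binds DNA together with C/EBP partners such as CEBPG and CEBPB. It raises the transcription of genes for amino acid supply and of a second layer of regulators, including ATF3, DDIT3 (CHOP), NUPR1, and TRIB3. The response limits itself: PPP1R15A (GADD34) directs a phosphatase to eIF2, and the pseudokinase TRIB3 binds ATF4 and restrains it. Arsenite, cadmium, and mercury are all known to engage the response in cultured cells. The counts measure mRNA, and neither phosphorylation of eIF2 nor translation was measured.

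ATF4 and its C/EBP partners recognize the composite element TGATGNAA (CARE, searched on both strands, N being any base), and the ATF and CREB proteins the palindrome TGACGTCA (CRE). Both were searched in the 1000 bases before each RefSeq transcription start (GRCh38.p14), for 17 windows of 8 of the genes; NUPR1 was not among them. The CARE was found in 4 of these 8 genes, beside 15.1% of all 27305 genes with such a window, and the CRE in 2 of 8, beside 2.82%. A gene was counted if any of its windows held the motif, and these genes had more windows each than the 27305 genes with 35116 windows. By window, 13% of the 35116 held a CARE and 2.37% a CRE. A match is a description of the letters, and these data hold no measurement of binding. The matches are shown here because the genes that hold them are those whose levels are followed below. Each run of 30 bases is written in the direction of its gene, with the motif in capitals.
TRIB3, CARE read on the opposite strand, chr20:380881-380910, plus strand: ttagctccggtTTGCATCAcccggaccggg
DDIT3, CARE read on the opposite strand, chr12:57520802-57520831, minus strand: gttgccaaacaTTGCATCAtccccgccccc
CEBPG, CARE, chr19:33374060-33374089, plus strand: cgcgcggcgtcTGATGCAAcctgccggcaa
ATF3, CARE before the upstream start, chr1:212565205-212565234, plus strand: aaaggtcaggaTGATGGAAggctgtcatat
ATF3, CRE before the downstream start, chr1:212614510-212614539, plus strand: tagtttcagctTGACGTCAagcctctttga
PPP1R15A, CRE, chr19:48872352-48872381, plus strand: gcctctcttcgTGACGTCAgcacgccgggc

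The TRIB3 run occurs 3 times, with starts 33 bases apart, at chr20:380881-380910, chr20:380914-380943, and chr20:380947-380976, and the 30 bases are the same each time. These copies lie in an exon of a longer annotated TRIB3 transcript, and the PPP1R15A match lies in an annotated exon of that gene. The DDIT3, CEBPG, and ATF3 matches lie outside annotated exons. The DDIT3 match begins 306 or 303 bases before the transcription start, depending on the transcript, and the CEBPG match 42 bases before. ATF4, ATF5, and CEBPB held neither motif in their windows.

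Between 2215276 and 4404609 counts per library were assigned to genes, and the floor of 3 counts corresponded to 0.682 to 1.36 CPM. CPM are counts scaled to 1000000 counts per library. Replicates correlated at 0.958 to 0.978 across genes. The mesenchymal and glial genes VIM, CD44, and SOX9 had counts in every library, whereas the defining astrocyte markers AQP4 and ALDH1L1 had 0 counts in all 60 libraries and GFAP at most 3 counts. The summed level of the 10 astrocyte and glial markers was 3911 to 5775 CPM in non-treated cells, 3365 to 5735 with arsenic, 3448 to 6336 with cadmium, and 3888 to 6120 with mercury, and that of 13 markers of other cell types stayed at 8.02 to 21.8 CPM in all libraries. Most of the first sum was VIM, with a median of 14369 counts against 1272 for CD44 and 251 for SOX9. The second sum held the neuronal gene SYT1, with 16 to 74 counts in every library. The sums therefore do not identify the cells as astrocytes. Mitochondrially encoded genes took 5.16% to 7.94% of the counts in non-treated cells, 1.91% to 7.53% with arsenic, 1.35% to 6.80% with cadmium, and 5.23% to 7.30% with mercury, and their part in the results below was not tested. 2 cadmium libraries stood apart from their groups. Replicate 3 at 24 h had the widest spread of log2 differences from its group over all genes (SD 0.279, against at most 0.217 in the other libraries), and cadmium results at 24 h are given with and without it. Replicate 1 at 6 h differed from its group by a chi-square per degree of freedom of 14.7 and 20, against 10.4 and 12.5 for replicate 3 at 24 h, and held the lowest mitochondrial share, 1.35% against 5.08% and 5.84% in its group. Without that 6 h library, no member lost or gained a call with cadmium at 6 h or between arsenic and cadmium, and TRIB3 with cadmium went from 0.72 (adjusted p = 0.0422) to 0.67 (adjusted p = 0.137). Between cadmium and mercury at 6 h, DDIT3 and CEBPG then missed the threshold, at -0.71 (adjusted p = 0.0704) and -0.49 (adjusted p = 0.0551), and ATF3 passed the LFC threshold (adjusted p = 0.0355). Of the lists of related genes described further down, 6 outputs of ATF4 and CHOP were called with cadmium at 6 h with and without it, and MAFG and TRIB1 were called only without it. Replicate 2 of arsenic at 3 h also differed from its group, by a chi-square per degree of freedom of 10.6 and 11.9. It held the fewest counts of all libraries, 2215276, and a mitochondrial share of 1.91% against 5.72% and 5.43% in its group. Arsenic values against non-treated cells at 3 h are given with that library included. As these are bulk samples, fewer cells and less RNA per cell cannot be told apart.

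All 3 metals raised members of the pathway, but at different times and to different heights. A gene was called where its log2 fold change (LFC) lay above 1 or below -1 with an adjusted p under 0.05, and "rose" or "fell" is used here for any LFC with an adjusted p under 0.05. The p values are from edgeR's quasi-likelihood test, adjusted by Benjamini-Hochberg over the tested genes of each comparison, and ± after an LFC is its standard error. NUPR1 passed the filter on low counts only through its treated groups, so the counts are given over the other 8 genes, and NUPR1 is described with its own values. With mercury, 2, 4, 6, 7, and 6 of the 8 genes were called higher at the 5 times in order, beside 0.154%, 0.47%, 1.1%, 2.58%, and 4.85% of all tested genes. With arsenic, the counts were 0, 0, 2, 5, and 6, beside 0.0081%, 0.0567%, 0.235%, 0.648%, and 1.89%. With cadmium, they were 0, 1, 3, 5, and 3, beside 0%, 0.0891%, 0.502%, 1.24%, and 0.527%. No member was called lower with any metal. Where the edgeR count was 0, DESeq2, which gave scarce genes no adjusted p in some comparisons, also called 0 members. There, the members with an unadjusted p under 0.05, NUPR1 included, numbered 1 (arsenic, 1.5 h), 4 (arsenic, 3 h), and 1 (cadmium, 1.5 h) of 9. Of the 12341 tested genes, 1219, 909, and 991 had such a p in these comparisons. By adjusted p alone, all 8 genes rose at 24 h with arsenic and with mercury, beside 6.54% and 13.9% of tested genes, and 4 rose with cadmium, beside 1.56%. Without replicate 3 of cadmium at 24 h, the same 3 genes were called and the same 4 rose. At 24 h the 8 genes had a median LFC of 1.17 (arsenic), 0.66 (cadmium), and 2.39 (mercury), whereas that of all tested genes was 0.00041, -0.00694, and -0.0211. The 3 metals share the non-treated libraries of each time point.

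**Figure D1:**
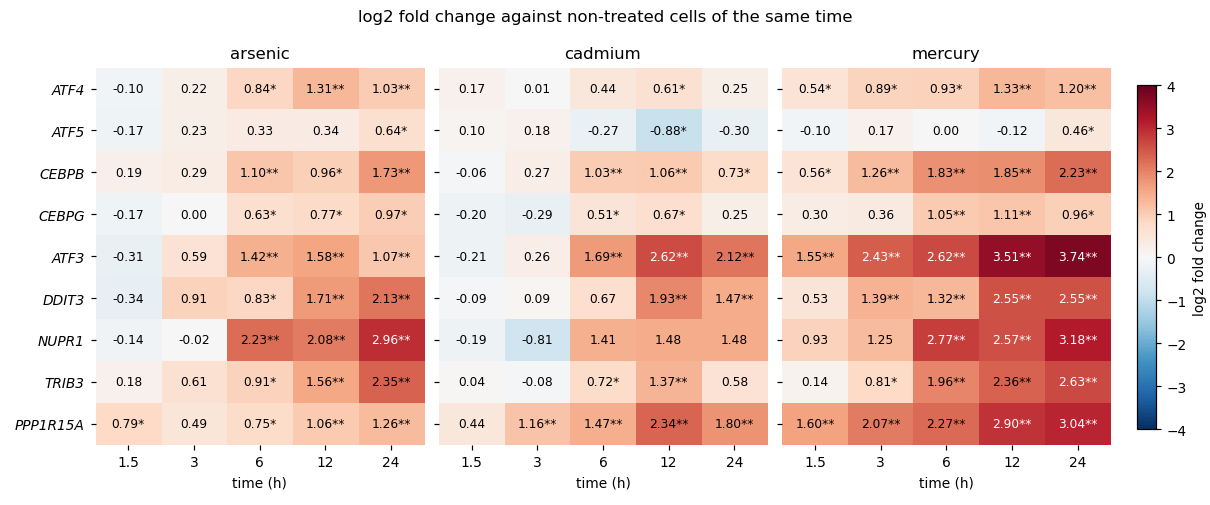
Log2 fold change of each gene (rows) at each time (columns, h) against non-treated cells, for each metal; 2 asterisks mark an adjusted p under 0.05 with an LFC above 1 or below -1, and 1 asterisk an adjusted p under 0.05 alone. The mercury panel is coloured from 1.5 h on, the arsenic panel deepens from 6 h to 24 h, and the cadmium panel is deepest at 12 h, with ATF5 as its blue row.

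ATF4 (GRCh38 chr22:39519695-39522683, plus strand), at the head of the pathway, is an abundant mRNA in these cells, at 218 to 363 CPM (median 284, n = 15) over the non-treated libraries. The mercury libraries held 440.2, 450.0, and 443 CPM at 1.5 h, against 284, 299.5, and 333 in non-treated cells, so that the groups did not overlap (LFC 0.54 ± 0.13, adjusted p = 0.0212). That early rise lost its adjusted p when any of 5 of the 6 libraries was left out, with the LFC staying between 0.49 and 0.61. By 24 h, mercury had 678, 666, and 712 CPM against 301, 327, and 266 (LFC 1.20 ± 0.13, adjusted p = 1.56e-11). Arsenic left ATF4 at 311, 309, and 329 CPM at 3 h (LFC 0.22 ± 0.13, adjusted p = 0.751), raised it to 598, 528, and 546 at 6 h (LFC 0.84 ± 0.13, adjusted p = 8.41e-06), and to 765, 721, and 514 at 12 h (LFC 1.31 ± 0.13, adjusted p = 4.7e-12). At 24 h, the arsenic libraries stood at 557, 591, and 679.7 CPM (LFC 1.03 ± 0.13), which fell below an LFC of 1 without replicate 3 of non-treated cells (0.97) or of arsenic (0.95). The largest cadmium LFC of ATF4 was 0.61 ± 0.13, adjusted p = 0.0009, at 12 h. Cadmium at 6 h was borderline, with 456, 409, and 404 CPM and an LFC of 0.44 ± 0.13, adjusted p = 0.0569, which passed in DESeq2 at 0.0402. At 24 h, 2 cadmium libraries were inside the non-treated range and replicate 3 was above it, at 301, 281, and 486 CPM, and the LFC was 0.25 ± 0.13, adjusted p = 0.419, or -0.03 (adjusted p = 0.959) without replicate 3.

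**Figure D2:**
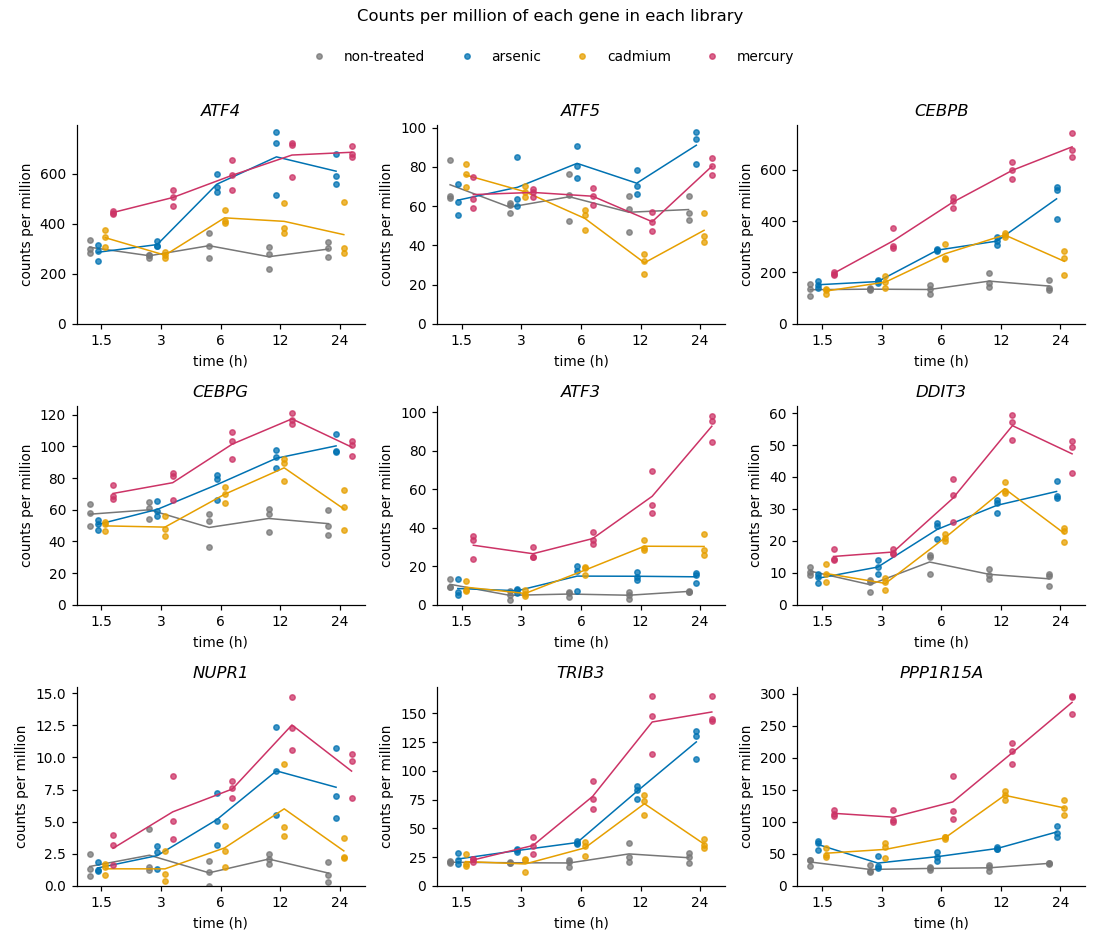
CPM (vertical axes from 0) of the 9 genes against time (h, evenly spaced); each point is 1 library and the lines join the means of 3 libraries, in grey for non-treated, blue for arsenic, orange for cadmium, and magenta for mercury. Mercury lies highest for ATF3 and PPP1R15A at every time, arsenic lies near mercury for ATF4, CEBPG, and NUPR1 at 24 h, and the cadmium means of CEBPB, CEBPG, DDIT3, and TRIB3 are lower at 24 h than at 12 h, while cadmium lies below the non-treated libraries for ATF5 at 12 h.

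ATF5 (GRCh38 chr19:49928702-49933935, plus strand) is a bZIP factor whose mRNA is translated under stress in the same manner as that of ATF4 and which is linked to mitochondrial stress. Non-treated libraries ranged over 46.9 to 83.6 CPM (median 61.6, n = 15). With cadmium it fell, from 65.2, 58.7, and 46.9 CPM in non-treated cells to 35.8, 31.8, and 25.6 at 12 h, with no overlap between the groups (LFC -0.88 ± 0.15, adjusted p = 2.23e-05). It was the only one of the 9 genes with an LFC below 0 at an adjusted p under 0.05 against non-treated cells. At 24 h, cadmium had 41.6, 44.7, and 56.8 CPM (LFC -0.30 ± 0.14, adjusted p = 0.349; -0.43, adjusted p = 0.164, without replicate 3). With arsenic, ATF5 passed the test only at 24 h, with 97.7, 94.3, and 81.3 CPM against 53.1, 56.6, and 65.2 (LFC 0.64 ± 0.14, adjusted p = 0.000324). Its arsenic LFC was already 0.33 (adjusted p = 0.382) at 6 h and 0.34 (adjusted p = 0.18) at 12 h, each with an unadjusted p under 0.05. At 12 h the arsenic libraries, at 66.4 to 78.7 CPM, all lay above the non-treated ones. Mercury, which gave the largest rises of most members, had an ATF5 LFC between -0.12 and 0.17 from 1.5 to 12 h, none passing the test, and 0.46 ± 0.14, adjusted p = 0.00705, at 24 h, with 0.40 (adjusted p = 0.0521) without replicate 1 of the non-treated cells. Over the 20 group means, ATF5 correlated with the other 8 members at r of -0.179 to 0.247, while the other pairs of members correlated at 0.707 to 0.977. These points share the non-treated groups and libraries, and the r values are a description.

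CEBPB (GRCh38 chr20:50190830-50192668, plus strand), a C/EBP factor that pairs with ATF4 and responds to many stresses and cytokines, rose at all 5 times with mercury. Its mercury libraries held 202, 192, and 195 CPM at 1.5 h. They held 293, 371, and 304 CPM at 3 h and reached 678, 741, and 648 by 24 h. The non-treated libraries held 155, 136, and 107 at 1.5 h and 138, 131, and 171 at 24 h. The LFC grew from 0.56 ± 0.12, adjusted p = 0.00629, to 2.23 ± 0.12, adjusted p = 1.62e-24, and the 1.5 h value was 0.44 (adjusted p = 0.285) without replicate 3 of the non-treated cells. Arsenic raised CEBPB from 6 h, with 290.1, 286, and 284 CPM (LFC 1.10 ± 0.12, adjusted p = 5.33e-10), and its effect grew between 12 and 24 h, when the libraries held 533, 521, and 406 (LFC 1.73 ± 0.12, adjusted p = 7.98e-19). Cadmium reached 353, 338, and 347 CPM at 12 h (LFC 1.06 ± 0.12, adjusted p = 2.56e-10). At 24 h the cadmium libraries held 258, 284, and 188 (LFC 0.73 ± 0.12, adjusted p = 1.76e-05; 0.89, adjusted p = 2.46e-07, without replicate 3). The cadmium calls at 6 and 12 h sit close to an LFC of 1: at 6 h the value was 1.03 ± 0.12, and 0.94 without replicate 3 of cadmium or 0.95 without replicate 1 of the non-treated cells, and at 12 h it was 0.97 without replicate 3 of the non-treated cells.

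CEBPG (GRCh38 chr19:33373709-33382686, plus strand), a short C/EBP protein that dimerizes with ATF4, ranged over 36.7 to 64.7 CPM (median 57, n = 15) in non-treated cells. Mercury raised it at 6 h to 103, 92.3, and 109 CPM against 36.7, 57, and 52.6 (LFC 1.05 ± 0.14, adjusted p = 1.19e-08), which was 0.90 without replicate 1 of the non-treated cells. At 12 h the mercury libraries held 121, 114, and 117 (LFC 1.11 ± 0.13, adjusted p = 5.01e-10), and at 24 h 104, 94.2, and 101 (LFC 0.96 ± 0.13, adjusted p = 2.26e-08). Arsenic at 24 h reached 97, 108, and 96.3 CPM (LFC 0.97 ± 0.13, adjusted p = 3.45e-08), which did not differ detectably from mercury (LFC of arsenic against mercury 0.01 ± 0.13, adjusted p = 0.974, 95% interval -0.24 to 0.26). Cadmium rose to 78, 91.9, and 89.5 at 12 h (LFC 0.67 ± 0.13, adjusted p = 0.00025) and stood at 62, 72.4, and 47.1 at 24 h (LFC 0.25 ± 0.14, adjusted p = 0.456; 0.39, adjusted p = 0.158, without replicate 3). The cadmium value at 6 h was 0.51 ± 0.14, adjusted p = 0.0337, and missed the threshold in the fit of only the libraries compared (adjusted p = 0.115). It also missed it without a filter on low counts (adjusted p = 0.0595). The same held without replicate 1 (0.36, adjusted p = 0.342) or 3 (adjusted p = 0.0535) of the non-treated cells, or replicate 2 (adjusted p = 0.0877) or 3 (adjusted p = 0.148) of cadmium.

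ATF3 (GRCh38 chr1:212565334-212620775, plus strand), a stress-induced ATF family factor whose gene responds within hours to many signals, was scarce in non-treated cells, at 2.42 to 13.5 CPM (median 6.64, n = 15), and rose most with mercury. Already at 1.5 h the mercury libraries held 23.5, 35.5, and 33.6 CPM against 9.24, 9.07, and 13.5 (LFC 1.55 ± 0.27, adjusted p = 7.23e-05). At 24 h they held 98.2, 84.3, and 95.5 against 6.70, 7.38, and 6.64, a 13.4-fold difference (LFC 3.74 ± 0.27, adjusted p = 2.24e-19), the largest of the 9 genes in any comparison with non-treated cells. Cadmium came next. Its libraries overlapped the non-treated ones at 1.5 and 3 h, reached 19.4, 15.6, and 18.9 CPM at 6 h (LFC 1.69 ± 0.33, adjusted p = 0.00017) and 29.5, 28.2, and 33.4 at 12 h (LFC 2.62 ± 0.31, adjusted p = 1.41e-10), and still held 25.7, 36.6, and 28.4 at 24 h (LFC 2.12 ± 0.28, adjusted p = 2.44e-08; 2.17, adjusted p = 8.93e-08, without replicate 3). Arsenic gave the smallest rise, with 7.20, 17.4, and 20.01 CPM at 6 h (LFC 1.42 ± 0.33, adjusted p = 0.00528), 12.9, 17, and 14.5 at 12 h, and 11.4, 15.6, and 16.5 at 24 h (LFC 1.07 ± 0.3, adjusted p = 0.00653). The arsenic call at 6 h was lost without replicate 2 of the non-treated cells (1.25, adjusted p = 0.0791), without replicate 2 of arsenic (1.30, adjusted p = 0.053), or without its replicate 3 (1.17, adjusted p = 0.115). At 24 h it was 0.97 (adjusted p = 0.0383) without replicate 3 of arsenic. In non-treated cells alone, ATF3 was lower at 12 h than at 1.5 h, with 6.71, 4.94, and 3.14 CPM (LFC -1.09 ± 0.33, adjusted p = 0.0407), but leaving out any library except replicate 1 at 12 h ended that call (LFC -0.84 to -1.20, adjusted p 0.0645 to 0.219).

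DDIT3 (GRCh38 chr12:57516588-57521737, minus strand) encodes CHOP, a C/EBP family factor linked to cell death under prolonged stress. Non-treated libraries ranged over 3.84 to 15.5 CPM (median 9.41, n = 15). Mercury raised it at 3 h, with 16.2, 17.3, and 16 CPM against 7.85, 7.18, and 3.84 (LFC 1.39 ± 0.24, adjusted p = 2.74e-05), and at 12 h the libraries held 59.3, 57.3, and 51.5 (LFC 2.55 ± 0.2, adjusted p = 1.26e-16). Arsenic reached 32.8, 31.9, and 28.7 CPM at 12 h (LFC 1.71 ± 0.21, adjusted p = 3.04e-09) and 33.5, 38.8, and 34.2 at 24 h (LFC 2.13 ± 0.21, adjusted p = 1.21e-12). Cadmium at 12 h had 34.9, 35.7, and 38.3 CPM (LFC 1.93 ± 0.21, adjusted p = 4.4e-11), a level that overlapped no non-treated library, and at 24 h 23.2, 24.1, and 19.8 (LFC 1.47 ± 0.22, adjusted p = 1.17e-06; 1.55, adjusted p = 2.35e-06, without replicate 3). The arsenic value at 6 h, 0.83 ± 0.21, adjusted p = 0.0228, missed the threshold without a filter on low counts (adjusted p = 0.0776) and without replicate 3 of the non-treated cells (0.64, adjusted p = 0.294). The last 400 exonic bases of DDIT3, near which reads from the 3′ end fall, overlap exons of MARS1 on the other strand by 65 bases, and the counting used strand.

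NUPR1 (GRCh38 chr16:28532708-28539008, minus strand) encodes a small chromatin-associated stress protein that lies downstream of ATF4. It had 0 to 43 counts per library, 8 libraries had at most 3 counts, and it passed the filter on low counts only through the treated groups, so that its presence among the tested genes is not a result. At 24 h, the mercury libraries held 9.76, 6.82, and 10.2 CPM and the arsenic libraries 7.02, 10.7, and 5.30, against 0.258, 1.84, and 0.866 in non-treated cells (LFC 3.18 ± 0.63, adjusted p = 7.14e-06, and 2.96 ± 0.63, adjusted p = 7.11e-05). Neither treated group overlapped the non-treated one, which held few counts. Cadmium had 2.27, 3.72, and 2.16 CPM (LFC 1.48 ± 0.67, adjusted p = 0.284), above the non-treated libraries in all 3, and the 95% interval was 0.14 to 2.81. Without replicate 3 of cadmium the LFC was 1.60 (adjusted p = 0.27). At 6 h the arsenic call lay just inside the threshold (LFC 2.23 ± 0.67, adjusted p = 0.04995). It was lost with a replicate block (adjusted p = 0.0533) and without replicate 1 (1.74, adjusted p = 0.358) or 2 (2.25, adjusted p = 0.153) of the non-treated cells or replicate 1 (1.92, adjusted p = 0.257) or 2 (2.24, adjusted p = 0.105) of arsenic. At 12 h the arsenic value was 2.08 ± 0.51, adjusted p = 0.00403, and 1.78 (adjusted p = 0.0513) without replicate 2 of arsenic.

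TRIB3 (GRCh38 chr20:380760-397559, plus strand), the pseudokinase that restrains ATF4 and one of its direct targets, carries the 3 repeated CARE copies shown above. Its non-treated libraries ranged over 15.9 to 37.5 CPM (median 20.7, n = 15). Nothing passed the test at 1.5 h, where mercury had 20.9, 23.5, and 23 CPM against 19.8, 20.6, and 21.1 (LFC 0.14 ± 0.21, adjusted p = 0.997), although ATF3 and PPP1R15A had already risen in the same libraries. By 6 h mercury had 90.8, 75.2, and 67 CPM (LFC 1.96 ± 0.19, adjusted p = 9.85e-13), and by 24 h 145, 165, and 143 against 28.6, 24.6, and 19.9 (LFC 2.63 ± 0.18, adjusted p = 3.98e-20). The mercury value at 3 h, 0.81 ± 0.2, adjusted p = 0.0103, was 0.63 (adjusted p = 0.225) without replicate 2 of mercury. It also missed the threshold without replicate 1, 2, or 3 of the non-treated cells (adjusted p = 0.0566, 0.0547, and 0.056). Arsenic followed from 6 h with 36.3, 39.3, and 37.1 CPM (LFC 0.91 ± 0.2, adjusted p = 0.00451), then 86.9, 83.1, and 75.8 at 12 h, and 134, 111, and 130.2 at 24 h (LFC 2.35 ± 0.18, adjusted p = 2.06e-17), which did not differ detectably from mercury (LFC of arsenic against mercury -0.27 ± 0.15, adjusted p = 0.273, 95% interval -0.58 to 0.03). Its value at 6 h was 0.80 (adjusted p = 0.0777) without replicate 1 of the non-treated cells. Cadmium reached 61.7, 73.4, and 79 CPM at 12 h (LFC 1.37 ± 0.18, adjusted p = 2.36e-08) and held 40.7, 35.5, and 32.7 at 24 h (LFC 0.58 ± 0.19, adjusted p = 0.0944; 0.65, adjusted p = 0.0831, without replicate 3).

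PPP1R15A (GRCh38 chr19:48872212-48876059, plus strand), the phosphatase subunit that closes the feedback loop on eIF2, was among the first genes to pass the test with each metal. At 1.5 h the mercury libraries held 109, 112, and 118 CPM, the arsenic libraries 67.5, 70.4, and 55.1, the cadmium libraries 48.4, 59.2, and 44.7, and the non-treated libraries 40.1, 40.8, and 30.2. All treated libraries were above all non-treated ones, with an LFC of 1.60 ± 0.16, adjusted p = 5.78e-12, with mercury, 0.79 ± 0.16, adjusted p = 0.0222, with arsenic, and 0.44 ± 0.16, adjusted p = 0.537, with cadmium. The arsenic value at 1.5 h held its adjusted p in 1 of 6 fits that left out a library and reached 0.71 (adjusted p = 0.53) without replicate 2 of arsenic. It was followed by 31.5, 28, and 46.6 CPM at 3 h, which overlapped the non-treated 32.3, 23.4, and 20.7 (LFC 0.49 ± 0.18, adjusted p = 0.49). Cadmium at 3 h had 66.7, 59.9, and 43.7 (LFC 1.16 ± 0.17, adjusted p = 3.91e-06), the only member called at that time with cadmium, 134, 148, and 141 at 12 h (LFC 2.34 ± 0.16, adjusted p = 1.85e-19), and 109.8, 121, and 134 at 24 h (LFC 1.80 ± 0.15, adjusted p = 9.59e-15; 1.73, adjusted p = 5.26e-13, without replicate 3). Mercury climbed to 294, 296, and 269 CPM at 24 h, an 8.21-fold difference (LFC 3.04 ± 0.15, adjusted p = 2.79e-26). Arsenic ended at 92.7, 82.5, and 76.6 (LFC 1.26 ± 0.16, adjusted p = 2.32e-09). Its call at 12 h, 1.06 ± 0.16, was 0.93 without replicate 3 of the non-treated cells.

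The order of the metals was not the same for all genes, and arsenic and cadmium differed in both directions. Of the 8 genes other than NUPR1, 0, 0, 0, 3, and 2 were called between them from 1.5 to 24 h, beside 0%, 0.0486%, 0.308%, 1.26%, and 2.4% of tested genes. Where 0 were called, DESeq2 called 0 too. There, the members with an unadjusted p under 0.05 (of all 9) numbered 3, 4, and 3, beside 835, 811, and 1147 of the 12341 tested genes. At 24 h, 6 of the 8 were higher with arsenic by adjusted p, beside 4.2% of tested genes, and 2 were lower, beside 5.96%. The 2 lower ones were ATF3 (LFC -1.05 ± 0.25, adjusted p = 0.00194) and PPP1R15A (LFC -0.53 ± 0.14, adjusted p = 0.0076). On the arsenic side were TRIB3 (LFC 1.77 ± 0.17, adjusted p = 4.81e-13), CEBPB (LFC 0.996 ± 0.12, adjusted p = 7.39e-10), ATF5 (LFC 0.95 ± 0.14, adjusted p = 3.52e-07), and ATF4 (LFC 0.78 ± 0.13, adjusted p = 5.36e-06), with CEBPG and DDIT3 at 0.72 and 0.66. NUPR1 was called too, at 1.49 ± 0.49, adjusted p = 0.0345. At 6 h, PPP1R15A was lower with arsenic (LFC -0.72 ± 0.15, adjusted p = 0.00334) and ATF5 higher (LFC 0.60 ± 0.14, adjusted p = 0.00803). The first missed the threshold without replicate 1 of arsenic (-0.61, adjusted p = 0.066), and the second without replicate 1 of arsenic (0.53, adjusted p = 0.0908) or replicate 2 of cadmium (0.53, adjusted p = 0.0921). At 12 h, differences past the threshold were found for PPP1R15A, which was lower with arsenic (LFC -1.28 ± 0.14, adjusted p = 5.24e-10), for ATF3 (LFC -1.04 ± 0.25, adjusted p = 0.00394), and, in the other direction, for ATF5 (LFC 1.22 ± 0.15, adjusted p = 6.51e-09) and ATF4 (LFC 0.71 ± 0.13, adjusted p = 7.49e-05). CEBPB and TRIB3 did not differ detectably at 12 h, with 95% intervals of -0.34 to 0.13 and -0.13 to 0.52.

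**Figure D3:**
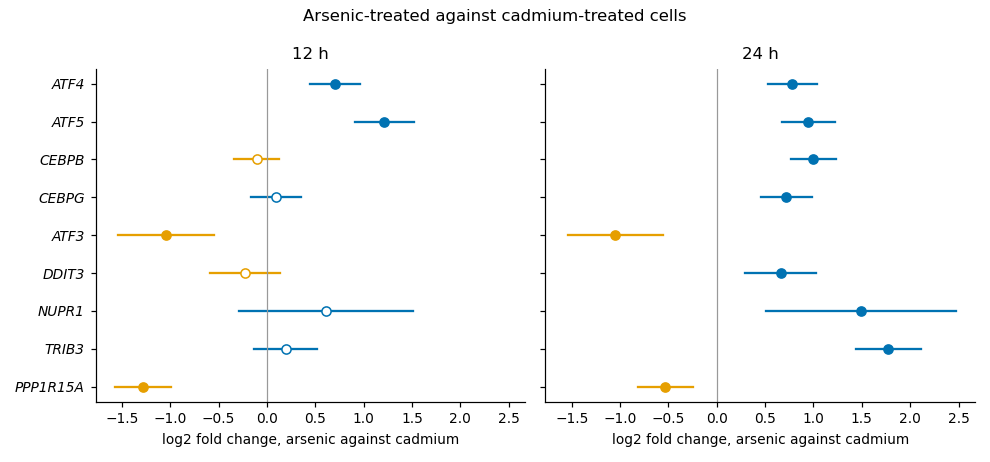
Log2 fold change of arsenic-treated against cadmium-treated cells at 12 h and 24 h (horizontal axes; bars are unadjusted 95% intervals, filled points an adjusted p under 0.05, blue higher with arsenic, and orange higher with cadmium). ATF3 and PPP1R15A lie on the cadmium side at both times, while the other 7 genes are all filled and on the arsenic side at 24 h.

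Without replicate 3 of cadmium at 24 h, the signs stayed and several values moved. PPP1R15A was -0.46 (adjusted p = 0.0546), DDIT3 0.58 (adjusted p = 0.0751), and NUPR1 1.37 (adjusted p = 0.128), each past the threshold with that library and not without it. ATF4 became 1.06 (adjusted p = 2.16e-09) and ATF5 1.08 (adjusted p = 2.3e-07), both then above an LFC of 1. TRIB3 was 1.71 (adjusted p = 1.36e-10) and ATF3 -1.09 (adjusted p = 0.00399). The NUPR1 call was also lost without replicate 1 or 2 of arsenic (adjusted p = 0.0592 and 0.21) or replicate 1 of cadmium (adjusted p = 0.129). The ATF3 value fell below an LFC of 1 in size without replicate 1 of arsenic (-0.91) or replicate 2 of cadmium (-0.88) at 24 h, and without replicate 1 of arsenic (-0.95) or replicate 3 of cadmium (-0.96) at 12 h, with the adjusted p under 0.05 each time.

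Mercury exceeded arsenic in ATF3 and PPP1R15A above all. The numbers of members called between arsenic and mercury were 1, 2, 3, 2, and 2, beside 0.308%, 0.446%, 0.64%, 1.35%, and 2.8% of tested genes. ATF3 was among them at all 5 times, with an LFC of arsenic against mercury of -1.86 ± 0.27, adjusted p = 1.08e-06, at 1.5 h, and -2.67 ± 0.24, adjusted p = 3.38e-14, at 24 h. PPP1R15A was called from 3 h, reaching -1.84 ± 0.14, adjusted p = 4.15e-16, at 12 h. TRIB3 was called at 6 h (LFC -1.04 ± 0.17, adjusted p = 1.26e-05; -0.92 without replicate 1 of mercury), and ATF3 at 6 h was -0.88 without replicate 1 of arsenic. ATF4 differed at 1.5 h (LFC -0.64 ± 0.13, adjusted p = 0.00196) and 3 h (LFC -0.67 ± 0.13, adjusted p = 0.000487) and not detectably from 6 h on, where at 24 h the LFC was -0.17 ± 0.13, adjusted p = 0.453, 95% interval -0.42 to 0.08. The ATF4 value at 1.5 h was -0.56 (adjusted p = 0.0519) without replicate 1 of arsenic. DDIT3, NUPR1, and ATF5 at 24 h had LFC values of -0.41, -0.21, and 0.18, none past the threshold, and CEBPB was -0.50 ± 0.11, adjusted p = 0.00115.

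Between cadmium and mercury, 2, 2, 1, 0, and 5 of the 8 genes other than NUPR1 were called, beside 0.243%, 0.348%, 0.648%, 0.583%, and 4.38% of tested genes, each of them lower with cadmium. At 12 h all 8 were lower by adjusted p, as they were at 24 h, although no LFC reached -1 with an adjusted p under 0.05. DESeq2 called 0 of the 9 genes there, and the fit without a filter on low counts called 1. All 9 had an LFC between -0.44 and -1.09 and an unadjusted p under 0.05, beside 1751 of the 12341 tested genes in either direction. CEBPG (adjusted p = 0.0393) missed the threshold at 12 h whichever library was left out. DDIT3 (adjusted p = 0.0319) missed it without any library except replicate 3 of mercury. ATF3 missed it without replicate 2 of cadmium or of mercury, and PPP1R15A without replicate 2 of mercury. Without a filter on low counts, the adjusted p was 0.123 for DDIT3 and 0.0818 for CEBPG. At 24 h the 8 genes and NUPR1 were lower with cadmium by adjusted p, beside 10.3%. TRIB3 differed most (LFC -2.05 ± 0.17, adjusted p = 1.3e-15), followed by NUPR1 (LFC -1.70 ± 0.49, adjusted p = 0.00666), ATF3 (LFC -1.62 ± 0.22, adjusted p = 3.32e-08), and CEBPB (LFC -1.50 ± 0.12, adjusted p = 1.57e-16). Without replicate 3 of cadmium, all 9 kept an adjusted p under 0.05, and ATF4 went from -0.95 to -1.24 (adjusted p = 1.36e-11). At 3 h the called genes were, NUPR1 included, ATF3 (LFC -2.17 ± 0.3, adjusted p = 1.15e-07), DDIT3 (LFC -1.30 ± 0.24, adjusted p = 0.000156), and NUPR1 (LFC -2.06 ± 0.59, adjusted p = 0.0326). The NUPR1 call was lost without replicate 1 or 3 of cadmium (adjusted p = 0.279 and 0.104) or of mercury (0.0559 and 0.237).

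Whether the response grew or receded was tested as the difference between the metal effects at 2 times. Between 3 and 12 h, the effect of cadmium changed for 8 of 9 genes, beside 4.89% of tested genes. It grew for ATF3 (2.36 ± 0.47, adjusted p = 0.000716), DDIT3 (1.84 ± 0.34, adjusted p = 0.000236), TRIB3, PPP1R15A, CEBPG, CEBPB, and ATF4, and it turned down for ATF5 (-1.06 ± 0.21, adjusted p = 0.000532). The effect of mercury grew for 5 genes over the same span, beside 2.93%, with TRIB3 first (1.55 ± 0.26, adjusted p = 4.63e-05), and that of arsenic for 3, beside 1.03%, with ATF4 first (1.09 ± 0.18, adjusted p = 6.49e-05). Single libraries decided part of these calls: the mercury count fell to 1 without replicate 3 of mercury at 3 h, and the arsenic count to 1 without replicate 1 of non-treated cells at 3 h or 12 h, or replicate 3 of arsenic at 3 h or 12 h. The cadmium value of ATF4, 0.59 ± 0.18, adjusted p = 0.045, missed the threshold in 8 of 12 fits that left out a library, with 0.47 to 0.63. Between 12 and 24 h, CEBPB with arsenic was the only change (0.77 ± 0.17, adjusted p = 0.00718), beside 1.57% of tested genes, and it was 0.64 (adjusted p = 0.0735) without replicate 2 of the non-treated cells at 12 h. No member passed with cadmium or mercury, beside 0.381% and 0.624%, and DESeq2 called 0. There, 4 and 2 members had an unadjusted p under 0.05, beside 1240 and 1268 of the 12341 tested genes. The lower cadmium effects at 24 h did not pass this test after adjustment: for TRIB3 the change was -0.79 ± 0.26, adjusted p = 0.21 (-0.72, adjusted p = 0.349 without replicate 3 of cadmium at 24 h), with an unadjusted 95% interval of -1.31 to -0.27. In non-treated cells, 0, 0, 1, and 0 members differed from 1.5 h at 3, 6, 12, and 24 h (0, 0, 1, and 0 by DESeq2), beside 0.122%, 0.486%, 4.09%, and 3.29% of tested genes. By an unadjusted p under 0.05 the members numbered 3, 2, 5, and 1, beside 544, 1433, 2086, and 2110 of the 12341 tested genes.

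Of the kinases and translation factors upstream of these genes, at most 5 rose (with mercury at 12 and at 24 h) and at most 6 fell (with mercury at 24 h) in any metal comparison by adjusted p alone. With mercury at 24 h, 13.9% of all tested genes rose by that rule, and the share that fell is not given here. All 25 listed genes (the eIF2 kinases EIF2AK1 to EIF2AK4, the subunits of eIF2 and its exchange factor eIF2B, and regulators of both) were tested, and 1 of 375 values was called (0.267%), beside 1.4% of all 185115 values of tested genes in the 15 comparisons: EIF2AK3 (PERK) with mercury at 24 h, at 19.2 ± 1.35 CPM against 9.50 ± 2.73 (SD, n = 3; LFC 1.02 ± 0.27, adjusted p = 0.00229). That call was lost without replicate 1 of mercury or of the non-treated cells. EIF2AK2 (PKR) rose by less at 24 h with mercury (LFC 0.52 ± 0.095, adjusted p = 1.14e-05) and with arsenic (LFC 0.47 ± 0.095, adjusted p = 0.000161). At 12 h it rose with all 3 metals, by 0.61 ± 0.096, adjusted p = 1.12e-06, with mercury, 0.53 ± 0.095, adjusted p = 5.56e-05, with arsenic, and 0.51 ± 0.097, adjusted p = 0.000104, with cadmium. EIF2AK1 (HRI), the kinase activated by arsenite, had an LFC of 0.06 with arsenic at 24 h (adjusted p = 0.774), fell with cadmium at 12 h (LFC -0.34 ± 0.11, adjusted p = 0.0482), and rose with mercury at 6 h (LFC 0.38 ± 0.11, adjusted p = 0.0263). EIF2AK4 (GCN2) fell with mercury at 24 h (LFC -0.29 ± 0.098, adjusted p = 0.0218). PPP1R15B, the constitutive relative of PPP1R15A, rose with mercury at 12 h (LFC 0.52 ± 0.17, adjusted p = 0.0219) and 24 h (LFC 0.70 ± 0.17, adjusted p = 0.000683) and with cadmium at 12 h (LFC 0.53 ± 0.17, adjusted p = 0.0339). At 24 h its cadmium value was 0.36 ± 0.17, adjusted p = 0.337, or 0.26 (adjusted p = 0.576) without replicate 3. The median LFC of the list lay between -0.063 and 0.093 in all 15 comparisons.

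Among relatives of the feedback genes, TRIB1 was called at 12 h with cadmium and from 3 to 24 h with mercury (at 24 h 70.7 ± 4.29 CPM against 23.5 ± 2.83, SD, n = 3; LFC 1.59 ± 0.17, adjusted p = 1.03e-11). It also rose by less with cadmium at 3, 6, and 24 h, the last at 0.62 ± 0.18, adjusted p = 0.0421, or 0.51 (adjusted p = 0.19) without replicate 3, with arsenic at 24 h (LFC 0.56 ± 0.18, adjusted p = 0.0228), and with mercury at 1.5 h (LFC 0.83 ± 0.17, adjusted p = 0.00195). TRIB2 had -0.24 ± 0.12, adjusted p = 0.134, with mercury at 24 h. Of 36 other bZIP factors, 28 were tested and 35 of 420 values were called (8.33%), beside the same 1.4% over all tested genes. The small MAF proteins, which pair with NRF2 and BACH1, led this list with mercury at 24 h: MAFF (LFC 1.99 ± 0.18, adjusted p = 1.2e-14) and MAFK (LFC 1.89 ± 0.18, adjusted p = 3.9e-13), together with the cAMP-responsive factor CREM (LFC 2.00 ± 0.28, adjusted p = 2.75e-08). With arsenic at 24 h the called members were JDP2, MAFG, BACH1, and XBP1, and with cadmium none was called at 24 h, with or without replicate 3. The member called lower was CREB3L1, in 4 comparisons. CEBPD, another C/EBP gene, had 1.03 ± 0.46, adjusted p = 0.0823, with mercury at 24 h, and CEBPA had too few counts to be tested.

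Genes that ATF4 and CHOP are known to switch on were called with all 3 metals. Of 34 listed outputs (amino acid synthesis and transport, aminoacyl-tRNA synthetases, and stress genes), 31 were tested. With mercury, 2, 6, 15, 19, and 21 of them were called higher at the 5 times, with arsenic 0, 1, 7, 17, and 19, and with cadmium 0, 1, 6, 8, and 3, and none was called lower. Over the 15 comparisons this came to 26.9% of their 465 values, beside 1.4% of the values of all tested genes. Of all tested genes, 0.154% to 4.85% were called higher with mercury over the 5 times, 0.0081% to 1.89% with arsenic, and 0% to 1.24% with cadmium. The members and lists were drawn up with results of these data known, so that the counts are a description. The median LFC of the list at 24 h was 1.46 with mercury, 1.43 with arsenic, and 0.153 with cadmium (0.202 without replicate 3). GDF15, a secreted stress hormone, changed most at that time: it had 5.90 ± 2.46 CPM in non-treated cells at 24 h, 145 ± 20.9 with mercury (LFC 4.63 ± 0.28, adjusted p = 2.63e-23), 88.7 ± 12.2 with arsenic (LFC 3.93 ± 0.28, adjusted p = 3.06e-19), and 22.3 ± 7.96 with cadmium (LFC 1.92 ± 0.3, adjusted p = 2.14e-06; 1.65, adjusted p = 0.000189, without replicate 3; all SD, n = 3). CHAC1, which degrades glutathione, rose at 24 h with arsenic (LFC 3.11 ± 0.35, adjusted p = 8.2e-12) and mercury (LFC 3.06 ± 0.35, adjusted p = 6.63e-12). With cadmium it was called at 6 h (LFC 1.88 ± 0.38, adjusted p = 0.000304; 2.04, adjusted p = 0.000247, without replicate 1) and had 0.97 ± 0.38, adjusted p = 0.199, at 24 h, or 0.88 (adjusted p = 0.332) without replicate 3. CTH, an enzyme of cysteine synthesis, had 2.94 ± 0.35, adjusted p = 1.63e-10, for arsenic and 3.36 ± 0.35, adjusted p = 4.47e-13, for mercury at 24 h. With cadmium it was called at 12 h (LFC 2.17 ± 0.39, adjusted p = 1.47e-05) and had 1.03 ± 0.38, adjusted p = 0.157, at 24 h, or 1.05 (adjusted p = 0.206) without replicate 3. The outputs called with cadmium at 24 h, with and without replicate 3, were SESN2, DDIT4, and GDF15, and the members called there were ATF3, DDIT3, and PPP1R15A.

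**Figure D4:**
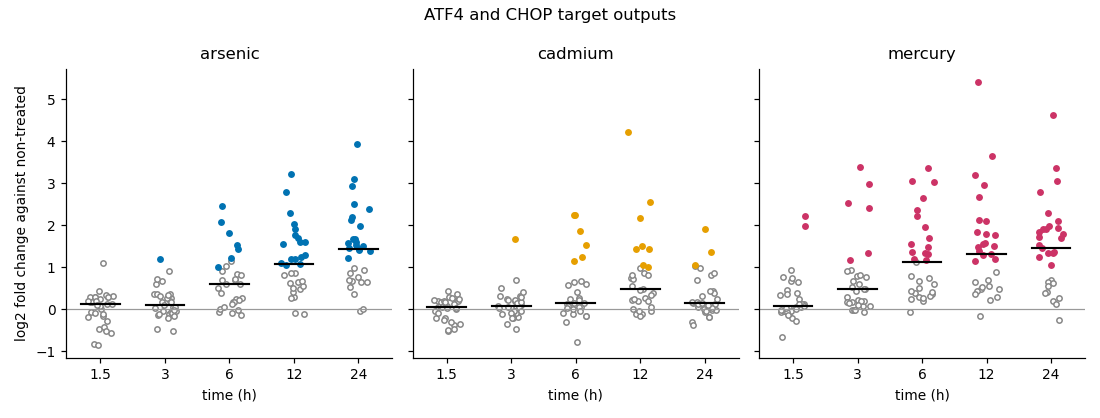
Log2 fold change against non-treated cells (vertical axis) of the 31 tested outputs of ATF4 and CHOP at each time (h); each point is 1 gene, filled where called, and the black bars are medians. The medians at 24 h are 1.43 for arsenic, 0.153 for cadmium, and 1.46 for mercury.

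The genes whose mean log2 CPM over the 20 groups was most like that of a member were sought among the 7245 genes that averaged 50 counts or more per library. TRIB3 was most like SLC3A2 (r = 0.974) and FTH1 (r = 0.969), and DDIT3 most like SESN2 (r = 0.965) and HERPUD1 (r = 0.956). CEBPB resembled SESN2 (r = 0.968) and TXNRD1 (r = 0.968), and CEBPG XBP1 (r = 0.955) and HERPUD1 (r = 0.95). For ATF4 they were XBP1 (r = 0.937) and FBXO30 (r = 0.934), and for NUPR1 XBP1 (r = 0.942) and GCLM (r = 0.934). ATF3 and PPP1R15A shared a neighbour: ATF3 was most like MXD1 (r = 0.949) and GADD45A (r = 0.928), and PPP1R15A most like DUSP5 (r = 0.944) and MXD1 (r = 0.937). ATF5 had no close neighbour, with RBM23 (r = 0.767) and TTC39C (r = 0.765). All 20 points share the libraries of the series, and the values are given without a test.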

How the data were processed

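3′ end RNA-seq (QuantSeq, 100-base single-end reads) was carried out on 60 libraries of 1321N1 cells. The authors aligned reads with STAR 2.7.9a to GRCh38 and counted them by gene and strand, and deposited whole-number counts that were not normalized. The 92 spike-in rows held 0 counts and were left out, and 0 columns of per-sample values went unused. Genes were filtered with edgeR's filterByExpr (minimum count 10, minimum total 15), libraries were scaled by TMM (factors 0.934 to 1.03), and 20 groups were fitted together with edgeR 4.0.16 (R 4.3.3) by the quasi-likelihood test (common biological coefficient of variation 0.12), with p values adjusted by Benjamini-Hochberg within each of 40 comparisons: 15 of a metal against non-treated cells of the same time, 15 between metals, 6 of a metal effect between times, and 4 of non-treated cells over time. The last 2 kinds were called by adjusted p alone. CPM used TMM-scaled totals, and intervals are LFC ± SE times the t quantile, at 95% and unadjusted. The script was tested on simulated data. 3 counts were taken as the floor of a library, and this covers counting error only.

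The genes named are the 9 members, the 3 called genes with the largest LFC at 24 h in each list, the eIF2 kinases, PPP1R15B, TRIB1, TRIB2, CEBPA, and CEBPD, and the 2 genes most like each member. Other genes were named after their values were seen, as members of a count. The members and lists were chosen with earlier results of these data known. Replicates of a group differed by more than sampling noise (lowest chi-square per degree of freedom 2.11), so each counted once. Alternatives were DESeq2 1.42.0, RLE size factors, no filter or a stricter one (minimum count 30), the replicate number as a block, fitting the compared libraries alone, and leaving out each library.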

Additional observations from a re-analysis of the deposited data

Results flagged for a closer look

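Groups of 3 libraries were too small for a search for single outlying samples. The metal effect (LFC against non-treated cells) differed between time points, by a test of the difference itself (edgeR, adjusted p under 0.05), for 17 member values. With cadmium the effect was larger at 12 h than at 3 h by 2.36 for ATF3, 1.84 for DDIT3, 1.45 for TRIB3, 1.19 for PPP1R15A, 0.96 for CEBPG, 0.79 for CEBPB, and 0.59 for ATF4, and the difference was -1.06 for ATF5. With mercury it was larger by 1.55 for TRIB3, 1.16 for DDIT3, 0.82 for PPP1R15A, 0.75 for CEBPG, and 0.59 for CEBPB. With arsenic it was larger by 1.09 for ATF4, 0.76 for CEBPG, and 0.67 for CEBPB, and from 12 to 24 h by 0.77 for CEBPB.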

How the results depend on the processing

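The numbers of member calls (out of 45 a metal, NUPR1 included) were 16 for arsenic, 12 for cadmium, and 28 for mercury, and under the 6 alternatives other than leaving out libraries they were 15 to 16, 12 to 13, and 27 to 28. Leaving out 1 library gave 14 to 16, 11 to 12, and 28 to 29. NUPR1, tested only through its treated groups, was among the calls with arsenic and with mercury at 6, 12, and 24 h, and not among those with cadmium. The arsenic and mercury totals therefore exceed the cadmium total in part through NUPR1, and the counts over the other 8 genes are given above. NUPR1 also enters the totals that follow. Over the 15 comparisons, 1.4% of the values of all tested genes were called. Of 79 member values past the adjusted p threshold against non-treated cells, 65 were past it in every fit that left out a library, and of 56 calls 47 were called in every such fit, with 0 changes of sign among the values past the threshold. Members whose arsenic effect grew from 12 to 24 h numbered 2 by DESeq2 (TRIB3 besides CEBPB) and 0 to 1 without single libraries, those whose arsenic effect grew from 3 to 12 h 1 to 3, and those whose mercury effect did 1 to 5. The ATF3 change in non-treated cells was not called when only the libraries compared were fitted (0 calls), and without single libraries there were 0 to 1 calls, while the eIF2 list held 0 to 2 calls without single libraries. Fewer libraries set the spread in such fits, and the cause of each change was not tested further. DESeq2 gave no adjusted p for NUPR1 with mercury at 6 h or between cadmium and mercury at 3 h, both called by edgeR, and called NUPR1 with cadmium at 12 h (adjusted p = 0.0385 by DESeq2, 0.0674 by edgeR). As a set, same-numbered treated and non-treated libraries did not deviate together (median r = -0.00199 over 45 pairs, 4 of them above 0.1), and the median r of differently numbered ones was -0.00133. Single pairs went further in both directions. At 24 h, r with replicate 3 of the non-treated cells was 0.35, 0.438, and -0.525 for replicates 1, 2, and 3 of cadmium. This check sees only shared deviations and cannot show whether same-numbered samples were handled together. With the replicate block there were 15, 12, and 28 member calls for arsenic, cadmium, and mercury, and 6, 10, and 12 between arsenic and cadmium, arsenic and mercury, and cadmium and mercury. The block gave 1, 0, and 0 changed members between 12 and 24 h (arsenic, cadmium, mercury) and 4, 8, and 5 between 3 and 12 h, 1 in non-treated cells over time, and 1, 35, 124, and 5 calls in the eIF2, bZIP, output, and relative lists. At the depth of 2215276 to 4404609 counts per library, the values of NUPR1 and ATF3 rest on few counts.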
